A study of Mus musculus with 8 samples.

Results

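Chromatin accessibility of LPS-stimulated macrophages was set against that of unstimulated macrophages, using 4 of the 8 ATAC-seq libraries of the study, chosen by their labels. In ATAC-seq the Tn5 transposase cuts accessible DNA and leaves sequencing adapters there, so the reads at a site count how often it was cut. The cells were bone marrow-derived macrophages of WT C57Bl/6 mice, grown from marrow in CMG medium with serum. The LPS group had 100 ng/mL of LPS for 1 h and no fenoterol, and the unstimulated group had neither agent; each group held 1 library of mouse 1 and 1 of mouse 2. The other 4 libraries, from the same 2 mice, had fenoterol, a β2 adrenergic receptor agonist, at 1 µM for 15 min, either alone or followed by 100 ng/mL of LPS for 1 h. They entered the scaling between libraries, the filter and grouping by mean height, and the estimate of spread. Their values are otherwise given below only beside those of some regions, clusters and sets of peaks. The table lists 74207 peaks on mm9 coordinates, of which 66786 were tested. Gene names are not given, because no mm9 annotation was used here; for the same reason the labelled cell type was not checked against marker genes.

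LPS, a component of the outer membrane of Gram-negative bacteria, is sensed on macrophages by Toll-like receptor 4. Signalling through the adaptors MyD88 and TRIF activates NF-κB, AP-1 and interferon regulatory factors, which bind promoters and enhancers of inflammatory genes. Many of these sites are already marked in resting macrophages by lineage factors such as PU.1, whereas others become accessible only after stimulation. Groups of neighbouring enhancers often lie around 1 gene. Which of these processes acted at any region below was not measured.

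Reads in peaks came to 1426873 and 4040292 in the unstimulated libraries of mouse 1 and mouse 2, and to 3521741 and 3637389 in the LPS libraries. The median peak held 9, 28, 24 and 26 reads in these libraries, in the same order. The log2 difference between the mice had an SD over peaks of 0.465 in unstimulated cells and of 0.323 with LPS. Accessibility is given in RPKM, reads per kb of peak relative to all reads in peaks, after scaling between libraries, so a change common to all peaks would not appear. Values at the floor of 1 read may stand for no read at all.

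Peaks called risen were mostly low in unstimulated cells, and peaks called fallen were mostly high there. Of the 66786 tested peaks, 4363 rose (6.53%) and 2363 fell (3.54%), together 10.1% (limma-trend, Benjamini-Hochberg adjusted p under 0.05). Peaks that rose had median heights of 10.3 RPKM in unstimulated mouse 1 and 11.4 RPKM in unstimulated mouse 2, and of 27.8 and 29.0 RPKM with LPS. Peaks that fell had medians of 39.1 and 35.8 RPKM unstimulated and of 21.9 and 21.0 RPKM with LPS. The median over all tested peaks was 18.7 RPKM in both unstimulated libraries, and 18.7 and 19.1 RPKM with LPS. The 4363 risen peaks went up in both mice and the 2363 fallen peaks went down in both, while 29.7% of all tested peaks were higher in both and 33.7% lower in both. Because the calls were made on these values, the agreement of the mice is a property of the selection. The unstimulated heights also entered the calls and the filter on mean height described below. The low start of risen peaks and the high start of fallen ones are therefore partly set by the selection too. The typical ratio of the LPS mean to the unstimulated mean was 2.57 at risen peaks and 0.572 at fallen peaks, and 0.971 over all tested peaks.

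The counts depended on single libraries and on the model of the spread. Without the mean trend in the spread, 3077 peaks rose and 837 fell, with 73 and 5 clusters as defined below. Without mouse 1's LPS library, 1932 peaks rose and 873 fell, and without mouse 2's, 1536 and 539. Without mouse 2's unstimulated library, so that only the shallow one stood for its group, 6675 rose and 5831 fell; without mouse 1's, 3574 rose and 1221 fell. By voom on the recovered reads, which gave 4924 risen and 3026 fallen peaks with all libraries, leaving out unstimulated mouse 2 left 1227 and 1622. None of the peaks called with all libraries was called in the opposite direction in any of these fits. Mouse 1's unstimulated library stood at the floor of 1 read at 565 of the risen peaks (12.9%), against 3.14% of all tested peaks.

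**Figure D1:**
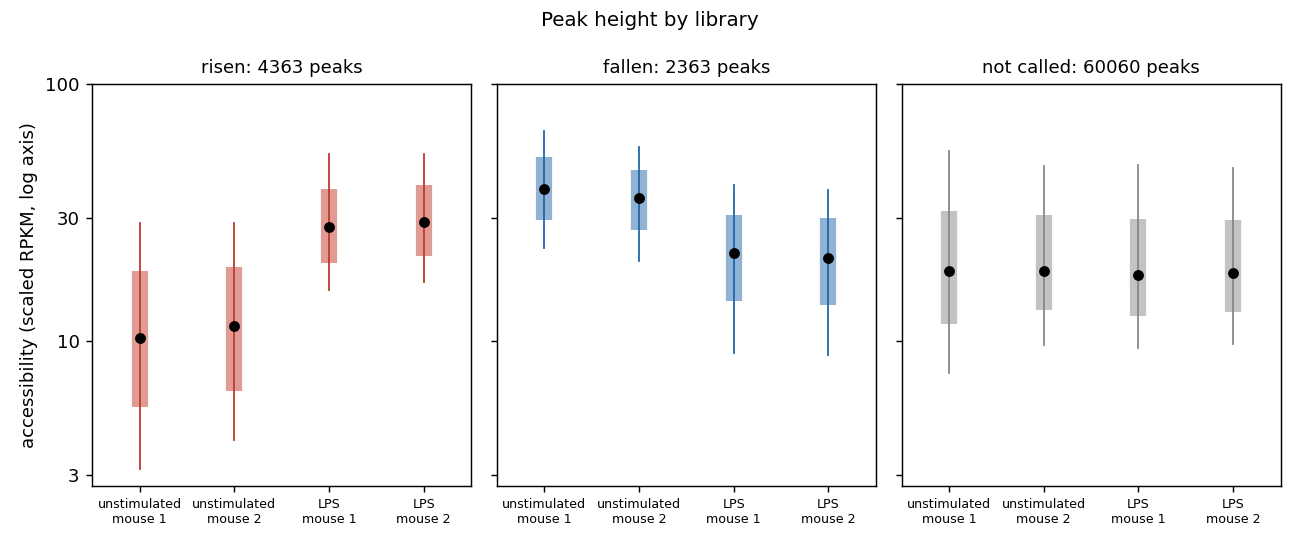
Height of risen, fallen and uncalled peaks in each of the 4 libraries (scaled RPKM, log axis); dots are medians over peaks, bars the middle 50% and lines the range from the 10th to the 90th percentile. The medians of risen peaks go from 10.3 and 11.4 RPKM to 27.8 and 29.0 RPKM, those of fallen peaks from 39.1 and 35.8 RPKM to 21.9 and 21.0 RPKM.

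The share of all peak reads that fell within the risen peaks was 3.08% and 3.40% in the unstimulated libraries of mouse 1 and mouse 2 (95% Wilson intervals 3.05% to 3.10% and 3.38% to 3.42%). It was 7.08% and 7.35% in the LPS libraries (7.06% to 7.11% and 7.32% to 7.37%). The fallen peaks held 5.02% and 4.93% of reads unstimulated (4.98% to 5.06% and 4.91% to 4.95%) and 3.08% and 3.0% with LPS (3.07% to 3.10% and 2.98% to 3.01%). Since the peaks were called on these 4 libraries, the direction of these shares is set by the selection, and only their size is described. The intervals cover counting error only. In the libraries with fenoterol, the risen peaks held 3.33% and 3.72% of reads without LPS and 7.32% and 7.5% with it. The levels of these libraries did not enter the contrast, but they entered the filter on mean height, and their spread entered the calls.

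Set against the heights of all 74207 peaks, few risen sites stayed low and few fallen sites reached the bottom of the range. The lowest 25% of all peaks lay under 10.8 RPKM in unstimulated cells and under 11.9 RPKM with LPS, and the highest 25% above 29.3 and 28.5 RPKM. In unstimulated cells, 2190 of the 4363 risen peaks (50.2%) were among the lowest 25% of peaks and 397 (9.10%) among the highest. With LPS, 11 were still among the lowest 25% and 2165 (49.6%) were among the highest. Only peaks with a mean of at least 9.62 RPKM over the 8 libraries, those with LPS included, were tested. A peak low in unstimulated cells thus entered the test largely through its values with LPS. The count of 11 is therefore largely set by this filter and the call. A passage from the lowest 25% straight into the highest 25% was seen at 320 risen peaks (7.33%). Of the fallen peaks, 1721 (72.8%) began among the highest 25% and 693 (29.3%) were still there with LPS. Only 406 fallen peaks (17.2%) ended among the lowest 25%, and 11 of them had begun among the highest. Most losses were therefore reductions of a tall peak to a peak of middle or upper height.

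Risen peaks were most frequent at upper-middle height and least frequent among the tallest peaks, while fallen peaks were rare among low peaks. With tested peaks divided into 10 equal groups by mean height over the 8 libraries, the share that rose was 5.29% in the lowest group (median 10.4 RPKM), 9.42% in the eighth (median 30.3 RPKM) and 3.62% in the highest (median 60.01 RPKM). The share that fell was 0.614% in the lowest group, 8.30% in the ninth (median 39.97 RPKM) and 3.71% in the highest. Risen peaks outnumbered fallen ones in the lowest 8 groups, by 353 to 41 in the lowest of all. In the upper 2 groups the fallen were the more numerous, by 554 to 467 and by 248 to 242. Among called peaks the size of the change went down with height. Risen peaks had a median log2 change of 1.31 in the lowest group and 0.65 in the highest, and fallen peaks of -1.19 and -0.55. A low peak needs a larger change to be called, so this decline follows at least in part from the threshold. Low peaks carry few reads, so small changes there can go uncalled, and the share of calls at a given height is not the share of sites that changed.

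Width followed a similar course. Peaks were 200 to 2617 bp wide, and log2 width and log2 height correlated across the 66786 tested peaks with r = 0.641; peaks are not independent samples, and both measures come from the same libraries. Median width was 437 bp for risen, 471 bp for fallen and 421 bp for all tested peaks. The share that rose was 5.78% of the 12880 peaks under 300 bp, 6.68% from 300 to under 500 bp, 7.41% from 500 to under 1000 bp and 2.83% of the 3217 peaks of 1000 bp or more. The share that fell was 2.59%, 3.16%, 4.91% and 2.58% in the same order. Among peaks with a mean height above 25.2 RPKM alone the order by width was different: 11.4% of the 959 peaks under 300 bp rose and 10.3% fell, against 2.55% and 2.72% of the 2867 of 1000 bp or more. Among these tall peaks, the narrow were called the most often and the wide the least, although the wide ones hold more reads. Height was not equal between them: the median was 31.05 RPKM under 300 bp and 52.66 RPKM at 1000 bp or more. The part of height in this contrast was not tested. Among peaks of at most 14.45 RPKM, 4.27%, 5.46%, 6.64% and 6.98% rose from narrow to wide, the last of only 43 peaks. There 1.16%, 0.693%, 0.845% and 0% fell. These shares were not tested against each other.

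**Figure D2:**
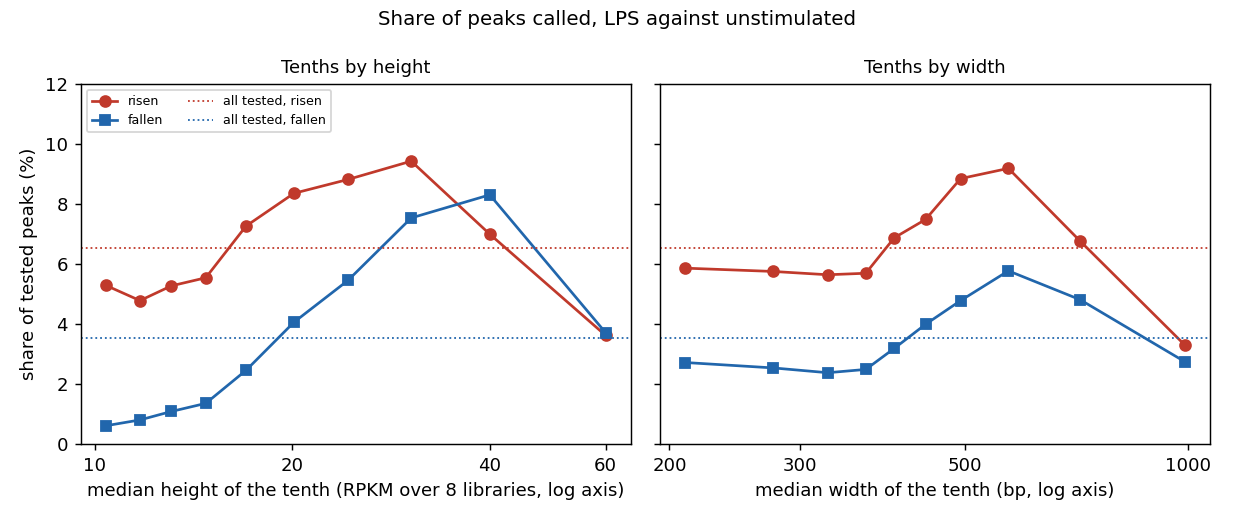
Share of tested peaks that rose or fell with LPS in 10 equal groups, each point at the median of its group on a log axis. Groups are by mean height over the 8 libraries, the response included (left), and by width (right). Dotted lines give the shares over all tested peaks, 6.53% and 3.54%. Risen peaks peak at 9.42% in the eighth group by height and fallen peaks at 8.30% in the ninth, and both shares are below 4% in the tallest and in the widest group.

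Of the 6 risen regions with the smallest adjusted p, 4 were among the lowest 25% of heights in unstimulated cells, and all 6 were tall with LPS. The first, peak15219, is a wide region of 1177 bp on chromosome 12 at 56588293 to 56589469. It stood at 6.98 and 8.17 RPKM in unstimulated mouse 1 and mouse 2 and at 62.1 and 59.4 RPKM with LPS, from 11, 40, 258 and 258 reads. Its LPS mean was 8.02 times the unstimulated mean, and its log2 change on the value + 4 RPKM was 2.49 (SE 0.17, adjusted p = 1.46e-07, limma-trend). On chromosome 3, peak46576 at 135303053 to 135303641 had 8.88 and 8.99 RPKM unstimulated and 62.1 and 63.1 RPKM with LPS (log2 change 2.36, SE 0.17, adjusted p = 1.80e-07). No other risen peak lay within 12.5 kb of it. The replicates of these 2 regions differed by less than 3 RPKM within each group, and the groups were far apart.

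On chromosome 6, peak59304 at 123230262 to 123230748 had 9.21 and 11.4 RPKM unstimulated and 62.3 and 63.5 RPKM with LPS (6.11 times the mean). Of its 5 tested neighbours within 12.5 kb, 3 also rose. The chromosome 2 region peak39905 at 90385397 to 90385935 had 11.1 and 15.6 RPKM unstimulated and 68.9 and 70.0 RPKM with LPS. The region with the tallest baseline of the 6 was peak71779 on chromosome 9 at 110959596 to 110960406, with 18.4 and 16.02 RPKM unstimulated and 75.4 and 79.3 RPKM with LPS (log2 change 1.94, SE 0.14). The narrow peak53649 on chromosome 5 at 91334507 to 91334824 had the largest ratio, 9.77, with 4.71 and 7.58 RPKM unstimulated, from only 2 and 10 reads, and 69.6 and 50.4 RPKM with LPS. In the libraries with fenoterol this region stood at 8.91 and 9.72 RPKM without LPS and at 47.0 and 41.3 RPKM with it. The calls of these 6 peaks were kept under all 19 alternatives. Since the baseline of peak53649 rests on so few reads, its ratio is the least certain of the 6.

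Of the risen peaks that began in the lowest 25% of heights with no value at the floor, the 5 tallest with LPS were named. Their ratios need not be typical, as they were picked by LPS height. The 5 include 4 of those regions, and 1 more. That one, peak23363, is 212 bp wide and lies on chromosome 14 at 103457007 to 103457218. It had 10.6 and 5.69 RPKM in the unstimulated libraries, from 3 and 5 reads, and 80.5 and 95.01 RPKM with LPS, from 60 and 74 reads. Its ratio of means was 10.8 and its log2 change 2.94 (SE 0.30, adjusted p = 4.35e-06, limma-trend). Of its 6 tested neighbours within 12.5 kb, 4 rose as well. In all, 1614 risen peaks began in the lowest 25% with no value at the floor.

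The fallen regions with the smallest adjusted p were tall, and most remained well above the floor with LPS. The broad peak17943 on chromosome 13 at 24908220 to 24909667 had no tested neighbour within 12.5 kb. It went from 57.8 and 57.6 RPKM to 16.6 and 12.5 RPKM, from 112, 347, 85 and 67 reads (log2 change -1.74, SE 0.18, adjusted p = 4.08e-06, limma-trend). With fenoterol it stood at 30.4 and 38.5 RPKM, between these levels, and with fenoterol and LPS at 12.6 and 13.9 RPKM. On chromosome 1, peak232 at 16632007 to 16632741 had 67.1 and 76.6 RPKM unstimulated and 30.8 and 29.9 RPKM with LPS, a mean 2.37 times lower. On chromosome 5, peak55050 at 125663870 to 125664411 had 74.5 and 70.6 RPKM unstimulated and 30.3 and 31.6 RPKM with LPS, and 3 of its 6 tested neighbours within 12.5 kb also fell. The absence of overlap between the groups at these regions follows from the call: it holds for all 2363 fallen peaks, and for 26.4% of all tested peaks.

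The next 3 by adjusted p were of similar height. On chromosome 8, peak66762 at 87223787 to 87224159 fell from 54.2 and 48.4 RPKM to 19.0 and 19.7 RPKM. On chromosome 10, peak9006 at 117522153 to 117523084 fell from 62.5 and 57.3 RPKM to 27.1 and 22.4 RPKM, and peak8524 at 98590309 to 98590960 from 56.2 and 53.9 RPKM to 23.9 and 21.2 RPKM. The log2 changes of these 3 were -1.24, -1.16 and -1.15, each with an SE of 0.14 or 0.15. The 6 fallen calls of smallest adjusted p were kept under all 19 alternatives.

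Among fallen peaks that ended in the lowest 25% of heights, the 5 that had been tallest were 201 to 483 bp wide. At peak26063 on chromosome 15 at 83433101 to 83433583, 35.6 and 29.9 RPKM in unstimulated cells stood against 8.80 and 10.7 RPKM with LPS (3.36 times lower, log2 change -1.42, SE 0.21, adjusted p = 1.80e-04, limma-trend). The chromosome 14 peak21644 at 33914805 to 33915200 had 37.8 and 28.0 RPKM unstimulated and 13.6 and 9.60 RPKM with LPS. On chromosome 3, peak45295 at 96363389 to 96363618 had 29.3 and 34.6 RPKM unstimulated and 6.18 and 14.2 RPKM with LPS, the latter from 5 and 12 reads. The 2 on chromosome 6, peak57462 at 56710772 to 56711005 and peak59171 at 120904079 to 120904279, had unstimulated values of 41.6 and 20.6 RPKM and of 26.1 and 36.0 RPKM. With LPS they stood at 13.4 and 8.14 RPKM and at 11.3 and 8.13 RPKM. The call of peak57462 was lost without mouse 1's unstimulated library (adjusted p = 0.152) and without mouse 2's LPS library (0.13), and the unstimulated mice differed there by more than its LPS values did. By voom on recovered reads without mouse 2's unstimulated library, the calls of peak45295 (0.115) and peak59171 (0.244) were lost.

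The tallest risen peaks were already tall before stimulation. On chromosome 10, peak6328 at 37057908 to 37058673 had 73.2 and 65.0 RPKM unstimulated and 124.6 and 116.5 RPKM with LPS, a 1.75-fold difference of the means (log2 change 0.77, SE 0.15, adjusted p = 0.00171, limma-trend). On chromosome 14, peak23364 at 103457564 to 103458676, which lies beside peak23363, had 69.8 and 51.6 RPKM unstimulated and 119.1 and 121.6 RPKM with LPS. On chromosome 11, peak13608 at 113627490 to 113628288 had 71.1 and 45.5 RPKM unstimulated and 111.7 and 111.3 RPKM with LPS. On chromosome 9, peak68553 at 7872586 to 7873396 had 90.3 and 64.1 RPKM unstimulated and 116.0 and 115.4 RPKM with LPS. In the last 3 the LPS libraries were close together while the unstimulated mice differed, with the shallow library of mouse 1 the higher. The call of peak68553 (adjusted p = 0.0351) was lost without mouse 1's LPS library (0.203) or mouse 2's (0.212), and that of peak6328 without the former (0.0531).

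The tallest fallen peaks had log2 changes of -0.59 to -0.45, and their calls were lost without either LPS library. On chromosome 12, peak17176 at 118798810 to 118799443 had 137.9 and 107.0 RPKM unstimulated and 83.1 and 75.8 RPKM with LPS (log2 change -0.59, SE 0.16, adjusted p = 0.0227, limma-trend). On chromosome 1, peak2329 at 109393302 to 109393962 had 131.2 and 99.4 RPKM against 80.6 and 75.1 RPKM. On chromosome 6, peak57138 at 47763127 to 47763904 had 114.3 and 94.3 RPKM against 77.2 and 69.4 RPKM. On chromosome 4, peak51297 at 144493761 to 144494396 had 109.3 and 98.8 RPKM against 77.5 and 73.0 RPKM (adjusted p = 0.0498, limma-trend). At all 4, the shallow unstimulated library of mouse 1 stood above that of mouse 2. With only the 4 libraries of the contrast, none of these calls was kept (limma-trend, adjusted p of 0.142 to 0.232), nor was any kept without the mean trend. Without mouse 1's LPS library their adjusted p was 0.121, 0.192, 0.167 and 0.208, and without mouse 2's it was 0.249, 0.317, 0.362 and 0.336. Without mouse 1's unstimulated library, 2 of the 4 calls were lost, at peak2329 (0.0657) and peak57138 (0.0595).

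Apart from peak40126, the widest called peaks had small changes. The widest risen peak, peak55357, spans 1891 bp on chromosome 5 at 136646019 to 136647909 and had 24.9 and 23.1 RPKM unstimulated and 36.8 and 33.8 RPKM with LPS. Its adjusted p was 0.045, and its call was lost without any 1 of the 4 libraries (adjusted p of 0.0688 to 0.254). The next, peak40126 on chromosome 2 at 101636457 to 101638044, rose from 34.3 and 29.4 RPKM to 65.4 and 61.8 RPKM (log2 change 0.92, SE 0.14, adjusted p = 2.06e-04, limma-trend), and this call was kept under all alternatives. The third, peak49601 on chromosome 4 at 102296523 to 102298056, had 65.2 and 48.7 RPKM against 87.1 and 85.2 RPKM. Its call was lost without mouse 1's LPS library (0.144) or mouse 2's (0.134). The widest fallen peaks were peak15664 on chromosome 12 at 77470049 to 77471761, peak67683 on chromosome 8 at 118230557 to 118232154 and peak38358 on chromosome 2 at 32567740 to 32569310. Their log2 changes were -0.47, -0.52 and -0.59, with unstimulated values of 56.6 to 73.8 RPKM and LPS values of 41.1 to 47.6 RPKM. All 3 of these calls were lost without mouse 1's unstimulated library (adjusted p of 0.203, 0.0684 and 0.061), without mouse 1's LPS library (0.154, 0.138 and 0.0782) and without mouse 2's (0.266, 0.157 and 0.0981).

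Peaks that rose lay near other risen peaks, and peaks that fell near other fallen ones. At gaps under 1 kb between adjacent tested peaks, 29.3% of the neighbours of risen peaks had also risen, where 8.74% of all peaks with a neighbour so close had risen. The share was 21.5% at 1 to 5 kb, 14.7% at 5 to 12.5 kb, 9.56% at 12.5 to 50 kb, 7.21% at 50 to 200 kb and 5.84% beyond, against 9.30%, 6.35%, 5.05%, 4.60% and 3.92% of all peaks at those gaps. For fallen peaks the shares were 21.9%, 13.5%, 8.82%, 3.90% and 4.12% up to 200 kb, against 5.22%, 5.25%, 3.62%, 2.66% and 1.68%. Neighbours that went the opposite way were few at short gaps: 0.557% of the neighbours of risen peaks at under 1 kb and 2.08% at 1 to 5 kb had fallen. Of the neighbours of fallen peaks, 0.933% and 3.68% had risen at these gaps. At 12.5 to 50 kb 3.19% had risen, close to the 3.90% that had fallen. At 200 kb or more, 0% of only 36 neighbours of fallen peaks had fallen and 5.56% had risen. Whether peaks under 1 kb apart are separate accessible regions was not tested. Without mouse 2's LPS library, the shares under 1 kb were 22.7% for risen and 10.7% for fallen peaks, with fewer peaks called in all, and by voom without mouse 2's unstimulated library they were 15.6% and 9.14%.

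The similarity of neighbours was also seen between animals. The log2 change of a peak in 1 mouse correlated with that of its neighbour in the other mouse with r = 0.291 at gaps under 1 kb, 0.163 at 1 to 5 kb, 0.123 at 5 to 12.5 kb, 0.070 at 12.5 to 50 kb, 0.045 at 50 to 200 kb and -0.014 beyond 200 kb. These correlations are over 1747 to 21149 pairs of peaks, which are not independent replicates, and the 2 values of a pair share no library. For comparison, the change of the same peak correlated with r = 0.478 between the mice. Within mouse 1, whose unstimulated library is shallow, the correlation of neighbours was 0.252 at under 1 kb, and within mouse 2 it was 0.368. Uncalled peaks leaned towards their called neighbours as well: under 1 kb from a risen peak their median log2 change was 0.11 and 64.0% were above 0, while next to a fallen peak it was -0.24 and 21.8% were above 0. Among all uncalled peaks at such gaps it was -0.05, with 43.7% above 0. Peaks on either side of a gap under 1 kb had a median height of 23.0 RPKM and those beside a gap of 200 kb or more of 13.7 RPKM; the part of height in these shares was not tested.

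**Figure D3:**
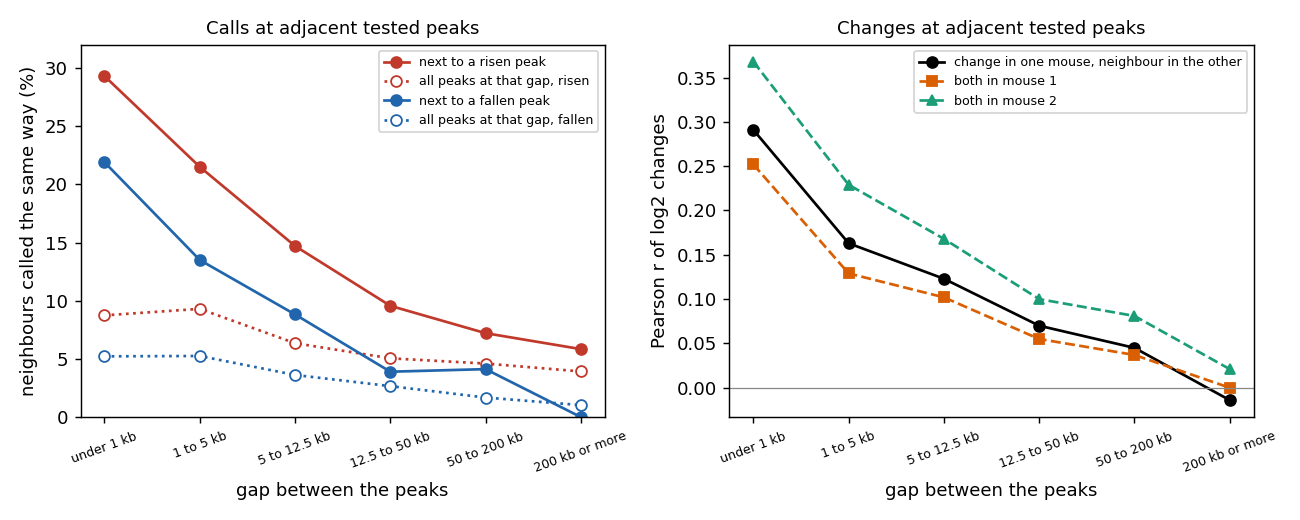
Left: percentage of adjacent tested peaks that were called the same way as a risen or fallen peak, by the gap between them, with the percentage of all peaks at that gap as open points. Right: Pearson r of the log2 changes of adjacent peaks, across the mice and within each. The share next to risen peaks goes from 29.3% under 1 kb to 5.84% at 200 kb or more, and r across mice from 0.291 to -0.014.

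Most called peaks stood alone or in pairs at a distance of 12.5 kb, and a minority formed clusters. Joined at gaps of at most 12.5 kb, the risen peaks made 3532 chains, of which 2950 were single peaks, 428 were pairs and 154 were clusters of 3 or more. The clusters held 557 risen peaks (12.8%), up to 9 in 1 cluster, and spanned 1581 to 35170 bp with a median of 12016 bp. The fallen peaks made 62 clusters with 207 peaks (8.76%), up to 5 in 1. Within the spans of the risen clusters lay 695 tested peaks, of which 137 were not called and 1 had fallen. Within those of the fallen clusters lay 267, of which 59 were not called and 1 had risen. Among the uncalled peaks inside, 44.5% were higher in both mice in the risen clusters and 76.3% lower in both mice in the fallen ones, against 25.8% and 33.5% of all uncalled peaks. The number of clusters also depended on single libraries: without mouse 1's LPS library there were 53 risen and 9 fallen clusters, and without mouse 2's there were 42 and 1. Without mouse 1's unstimulated library there were 28 fallen clusters, and without mouse 2's there were 136.

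Clustered risen peaks were taller than single ones in both states. Their median height was 13.7 RPKM unstimulated and 36.8 RPKM with LPS, against 9.92 and 26.2 RPKM for single risen peaks, with median log2 changes of 1.14 and 1.08 and median widths of 432 and 437 bp. Clustered fallen peaks stood at 45.3 RPKM unstimulated and 26.5 RPKM with LPS, against 36.0 and 20.8 RPKM for single ones. Closely spaced tested peaks of any kind were taller too. Their median height over the 8 libraries was 23.0 RPKM beside gaps under 1 kb and 16.7 RPKM beside gaps of 12.5 to 50 kb. In the libraries with fenoterol, 97.7% of clustered and 95% of single risen peaks were higher with LPS in both mice, beside 32.6% of all tested peaks. For fallen peaks, 87.9% of clustered and 86.1% of single ones were lower there in both mice, beside 37.1% of all. The levels of the fenoterol libraries did not enter the contrast, but they entered the filter on mean height, and their spread entered the calls. These shares are therefore not fully independent of the calls. The differences between clustered and single peaks were not tested.

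Every cluster span, risen or fallen, runs from its first to its last called peak. A high share of called peaks inside it, and the direction of its mean, therefore follow largely from the definition. Over all tested peaks, 6.53% rose and 3.54% fell. The cluster with the most risen peaks lies on chromosome 4 at 144842507 to 144873792, where 9 of 10 tested peaks in 31286 bp rose. Averaged over its 10 peaks, accessibility was 37.5 and 34.5 RPKM in unstimulated mouse 1 and mouse 2 and 59.2 and 66.1 RPKM with LPS. The log2 changes of the 9 ran from 0.52 to 1.57. Its tallest member, peak51353 at 144857404 to 144858169, had 77.1 and 63.8 RPKM unstimulated and 109.5 and 110.8 RPKM with LPS, a call lost without mouse 1's LPS library (adjusted p = 0.11) or mouse 2's (0.134). The 1 member not called, peak51354, had 63.5 and 64.1 RPKM unstimulated and 49.4 and 50.4 RPKM with LPS (log2 change -0.33, adjusted p = 0.189, limma-trend), so its values went the other way from those of its neighbours in both mice. It was chosen for mention after its values were seen.

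A cluster on chromosome 2 at 164247502 to 164282671 held 8 risen peaks of 10 tested, and the only fallen peak inside any risen cluster. That peak, peak42509, had 81.1 and 73.5 RPKM unstimulated and 42.7 and 28.3 RPKM with LPS (log2 change -1.06, SE 0.16, adjusted p = 2.00e-04, limma-trend), kept under all 19 alternatives; it too was named after its values were seen. The tallest risen member, peak42510 at 164268186 to 164268956, had 49.4 and 33.7 RPKM unstimulated and 66.1 and 64.4 RPKM with LPS. Its adjusted p of 0.0127 became 0.102 without mouse 1's LPS library, 0.0945 without mouse 2's and 0.0587 without mouse 2's unstimulated library. Thus 2 peaks less than 2 kb apart, centre to centre, moved in opposite directions in both mice.

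Among the named risen clusters, strong gains were found on chromosomes 16 and 14. All 6 tested peaks at 84702982 to 84721264 on chromosome 16 rose, by log2 changes of 1.34 to 2.35. Their mean went from 18.2 and 15.9 RPKM to 57.8 and 73.7 RPKM, 3.17-fold in mouse 1 and 4.64-fold in mouse 2. The tallest, peak28954 at 84718045 to 84719259, had 13.5 and 8.71 RPKM unstimulated and 61.8 and 84.6 RPKM with LPS (log2 change 2.35, SE 0.21, adjusted p = 1.56e-06, limma-trend). Less than 0.1 Mb away on the same chromosome, at 84603861 to 84627803, all 7 tested peaks rose too, with means of 24.4 and 22.6 RPKM unstimulated and 51.9 and 50.2 RPKM with LPS. The chromosome 14 cluster at 103442130 to 103458676 held 6 risen peaks of 7, among them peak23363 and peak23364 described above, with log2 changes of 0.57 to 2.94. Its mean went from 33.6 and 27.8 RPKM to 74.3 and 81.2 RPKM. Its second-tallest site before LPS, peak23361, was the 1 not called, with 63.4 and 56.4 RPKM unstimulated and 71.5 and 89.1 RPKM with LPS (adjusted p = 0.0859, limma-trend); it was chosen for mention after its values were seen.

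**Figure D4:**
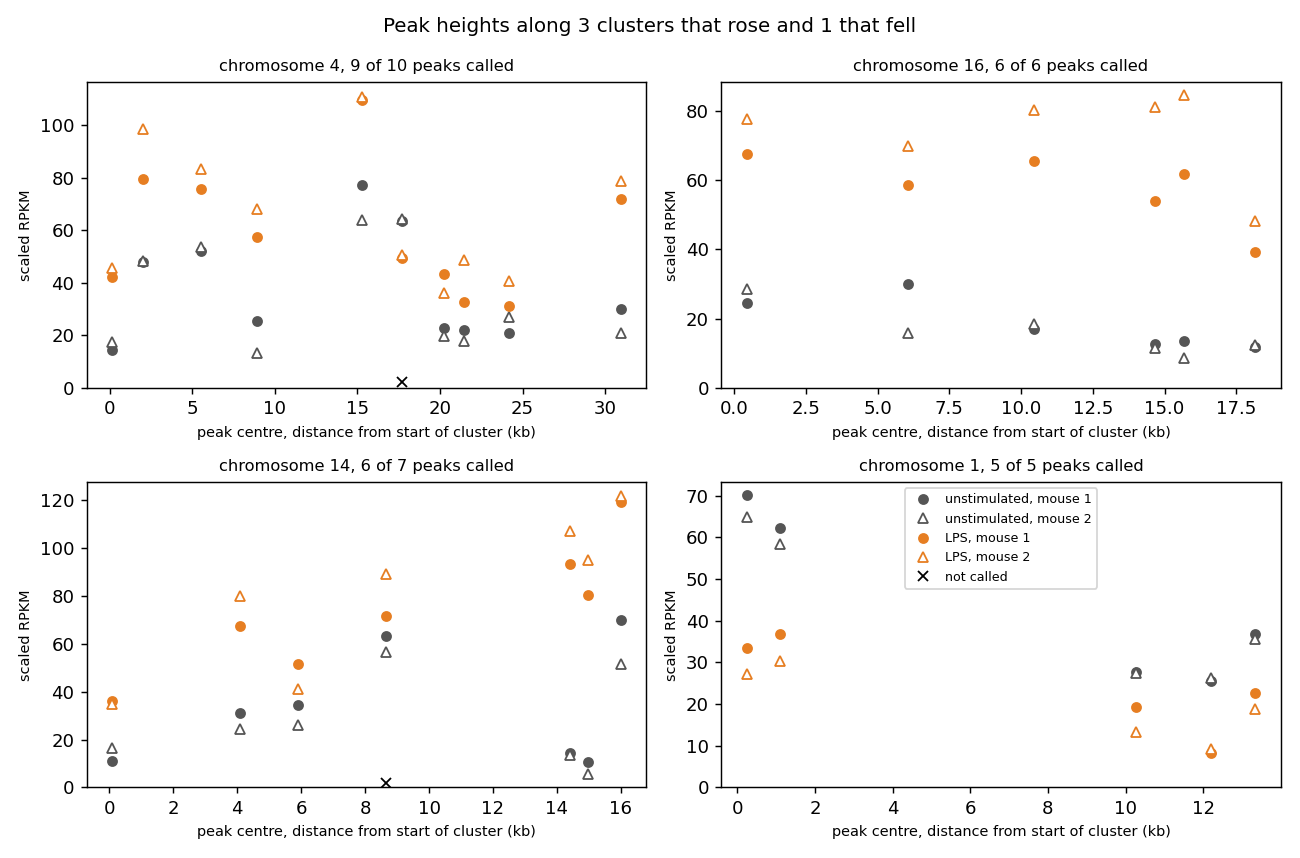
Height of each tested peak in the 4 libraries (scaled RPKM) against the distance of its centre from the start of its cluster (kb), for 3 clusters that rose and 1 that fell; crosses mark peaks that were not called. On chromosome 4, peak51354 at 63.5 and 64.1 RPKM unstimulated is the only one with lower LPS values; on chromosome 16 all 6 LPS pairs lie above all unstimulated values of the same peak.

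In 3 further clusters 7 of 8 tested peaks rose. That on chromosome 5 at 92775084 to 92798483 went from means of 18.3 and 16.5 RPKM to 38.8 and 44.4 RPKM, and its tallest called member, peak53724, from 30.5 and 20.1 RPKM to 72.7 and 63.8 RPKM. That on chromosome 11 at 44182735 to 44212833 went from 14.8 and 18.4 RPKM to 37.7 and 43.0 RPKM. In it, peak10592 at 44203376 to 44204167 stood out, with 34.0 and 31.0 RPKM unstimulated and 89.8 and 96.6 RPKM with LPS (log2 change 1.41, SE 0.13, adjusted p = 2.42e-06, limma-trend). The other cluster on chromosome 4, at 102242771 to 102266603, was already tall, with 39.6 and 30.4 RPKM unstimulated and 65.3 and 60.3 RPKM with LPS. Its tallest called member, peak49591, had 70.1 and 59.0 RPKM against 97.9 and 92.4 RPKM, a call lost without mouse 1's LPS library (adjusted p = 0.214) or mouse 2's (0.156). In the libraries with fenoterol, the mean of each of the 8 named risen clusters was higher with LPS than without it in both mice, by 1.54- to 4.60-fold.

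The named fallen clusters held 4 or 5 called peaks each. All 5 tested peaks at 133587004 to 133600685 on chromosome 1 fell, by log2 changes of -1.22 to -0.65, and their mean went from 44.5 and 42.5 RPKM to 24.1 and 19.8 RPKM. The tallest, peak2738, had 70.2 and 64.9 RPKM unstimulated and 33.6 and 27.2 RPKM with LPS (log2 change -1.06, SE 0.14, adjusted p = 5.11e-05, limma-trend). On chromosome 11, 5 of 7 peaks fell at 117178327 to 117200174, with means of 38.6 and 35.2 RPKM against 21.7 and 19.5 RPKM, and 5 of 6 at 70460235 to 70483117, with 45.0 and 38.7 RPKM against 29.0 and 26.8 RPKM. On chromosome 15, 5 of 6 fell at 86032954 to 86056046, with 45.3 and 46.9 RPKM against 25.3 and 28.8 RPKM. On chromosome 9, 4 of 5 fell at 123848796 to 123861480, with 31.1 and 25.9 RPKM against 11.9 and 14.5 RPKM, the lowest level that a named fallen cluster reached.

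The calls of the tallest members of the last 4 clusters depended on single libraries. With all libraries their adjusted p was 0.019 for peak13843, 0.0357 for peak11626, 0.00545 for peak26168 and 0.0128 for peak72367 (limma-trend). Without mouse 1's unstimulated library the calls of all 4 were lost, with adjusted p of 0.0572 for peak13843, 0.0517 for peak11626, 0.0542 for peak26168 and 0.129 for peak72367. Without mouse 1's LPS library they were lost at peak11626 (0.0927), peak26168 (0.126) and peak72367 (0.167), and without mouse 2's at peak13843 (0.35) and peak11626 (0.311). With fenoterol present, the mean of each of the 5 clusters was lower with LPS than without it in both mice, at 0.457 to 0.840 of its level.

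**Figure D5:**
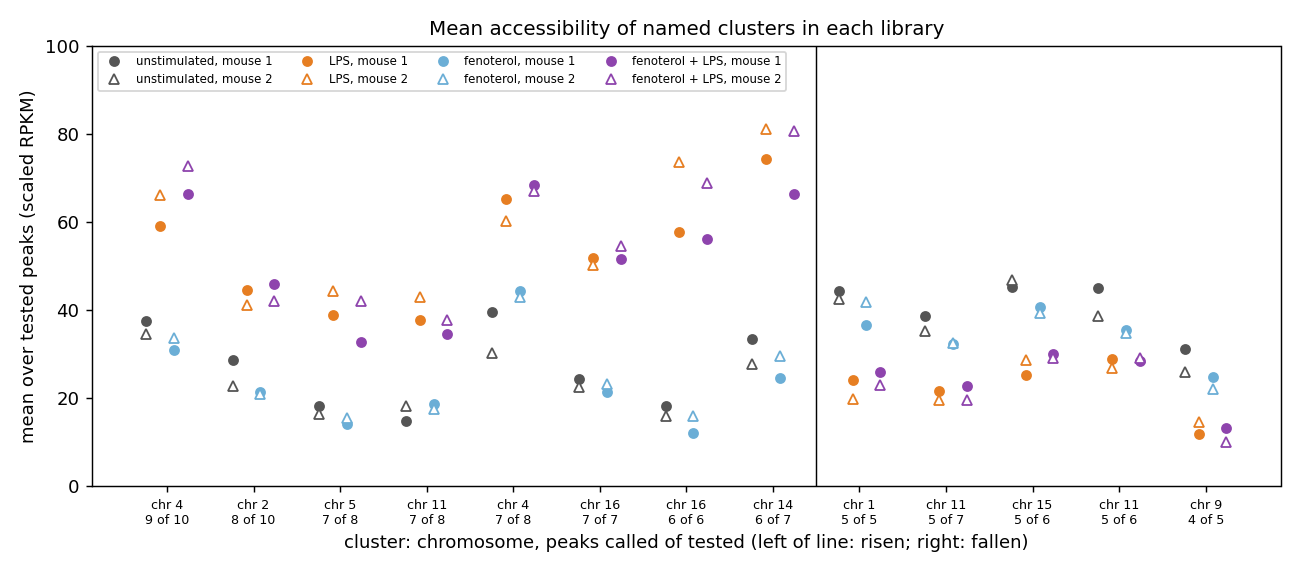
Mean height over the tested peaks of 8 risen clusters (left of the line) and 5 fallen clusters (right) in each of the 8 libraries (scaled RPKM); circles are mouse 1 and triangles mouse 2. In every cluster shown the LPS values lie on 1 side of both unstimulated values, from 59.2 and 66.1 against 37.5 and 34.5 RPKM in the first to 11.9 and 14.5 against 31.1 and 25.9 RPKM in the last. The side is largely set by how clusters were defined and chosen.

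Over whole chromosomes the calls were spread widely. Leaving out chromosome Y, where none of 32 tested peaks was called, the share that fell ran from 2.06% on chromosome 18 and 2.09% on chromosome X to 4.56% on chromosome 7. Chromosome 18 had many risen peaks for its fallen ones, 170 against 46, and chromosome 7 had 211 against 184. In bins of 1 Mb, 50% of the risen peaks lay in as few as 343 of the 2281 bins with a tested peak and 50% of the fallen in 257, while 50% of all tested peaks took 602; sets with fewer members need fewer bins, so these numbers are not comparable with each other. Of the 1798 bins with at least 10 tested peaks, 23 had 25% or more of their peaks risen and none had 25% or more fallen. The bin from 84000001 to 85000000 on chromosome 16, which holds both clusters described above, had 15 risen peaks of 34 (44.1%) and no fallen one. On chromosome 7, the bin from 81000001 to 82000000 had 14 risen of 31 (45.2%). The bin with the most fallen peaks, 12 of 63 (19.0%), was on chromosome 11 from 70000001 to 71000000 and holds 1 of the fallen clusters. Bins with 5 or more of each kind numbered 20, and on chromosome 5 from 139000001 to 140000000 there were 11 risen and 9 fallen peaks among 66.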

How the data were processed

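Reads were processed with cutadapt, Bowtie2, MACS2 and HOMER on build mm9, per the submitters' processing notes. Tool versions, any removal of duplicates, any Tn5 shift and whether peaks came from pooled reads were not given in the sources used here. As deposited by the authors, the table holds 1 RPKM value per peak and library for a peak set shared by all 8 libraries. Values times peak length came within 0.01 read of whole reads at all peaks, which gave the reads per peak. Values were divided by median-ratio size factors (0.9401 to 1.0372), and log2 of the value + 4 RPKM was used. Peaks with a mean under 9.62 RPKM, the lowest 10%, did not enter the test. limma 3.58.1 in R 4.3.3 (limma-trend, Benjamini-Hochberg, threshold 0.05) fitted 4 group means to all 8 libraries, with 4 residual degrees of freedom and a prior worth 16.4. Log2 changes are on the value + 4 scale and understate ratios of low levels.

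Per the labels, a mouse number marks 1 animal; differences between the mice correlated at 0.022 to 0.071 across groups. With 2 mice per group the p-values rest largely on a spread shared over peaks. The code was tested on simulated data. Members and lists were chosen with earlier results of these data known. Peaks were named by rule, among called peaks with no value at the floor: by smallest adjusted p (6 per direction), height (4), width (3), passage from or to the lowest 25% (5), and the 8 risen and 5 fallen clusters with the most called peaks, each with its tallest called peak; clusters tied in number were ranked by summed log2 change, which favours strong changes. Clusters are 3 or more called peaks with gaps of at most 12.5 kb. Sequences and genes at the peaks are not analysed here.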

Additional observations from a re-analysis of the deposited data

How the results depend on the processing

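In 17 alternatives, and in 2 more added after the data were seen (voom without each unstimulated library), no peak called with all libraries was called the opposite way. Of 45 named peaks, 24 kept their call under all 19. The other 21 lost it under 1 to 9 and none changed sign. The absence of reversals follows largely from the selection, as the values of the groups hardly overlap at called peaks. Leaving out 1 library gave 1536 to 6675 risen and 539 to 5831 fallen peaks, with 42 to 212 risen and 1 to 136 fallen clusters. By voom on recovered reads, 4924 rose and 3026 fell; when voom lacked mouse 2's unstimulated library, 1227 rose and 1622 fell in 18 and 6 clusters, so that omission raised the count of limma-trend and lowered that of voom. The cause was not tested. Without the mean trend, 837 peaks fell, in 5 clusters, and risen clusters numbered 73. With only the 4 libraries, 3457 peaks rose and 1668 fell, in 112 and 28 clusters, and 5048 of the 6726 calls were kept. Gaps of at most 5000 bp gave 72 risen and 23 fallen clusters, and of at most 50000 bp 346 and 135, as wider or narrower joining must. With the mouse as a block, 4660 rose and 2853 fell, in 174 and 81 clusters, and 6718 of the 6726 calls were kept; the block moved none of these 4 counts by more than 1.5 times. Other scalings moved the median change of all peaks to between -0.0312 and 0.0011. The 1426873 reads of the unstimulated library of mouse 1 limit what can be seen at low peaks.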
